A study of Mus musculus with 14 samples.

Results

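The proteasome is built from subunits whose genes carry the symbols Psma, Psmb, Psmc and Psmd, and all symbols of this form followed by a digit were taken from the 24411 genes listed for mouse kidney. This gave 40 symbols, of which 38 had a mean CPM (reads on the gene scaled to a common library total) of at least 1 over the 14 libraries, and all 38 passed the filter on low counts. The thymus-type subunit Psmb11 had no read in any library, and Psma8, an alpha subunit best known from testis, averaged 0.27 CPM; both were left out. Of the 38, 37 encode parts of the proteasome or its assembly chaperones, and Psmc3ip, a cofactor of meiotic recombination, matches by name only. Whole-kidney RNA came from male C57/B6 mice aged 8 weeks at day 0 (n = 4), at day 1 (n = 5) and at day 3 (n = 5) after renal ischemia/reperfusion injury (IRI), a surgical model of acute kidney injury (AKI). The libraries of day 0 are named as controls, and the labels do not say whether these mice had sham surgery, nor that each library is a separate animal, so p-values measure only the spread between these libraries. Libraries of days 1 and 3 carry a number of 1 digit (3 at day 1, 2 at day 3) or of 3 digits (2 at day 1, 3 at day 3), while all 4 libraries of day 0 have 1 digit. What the number marks is not stated, and for the 3-digit libraries it cannot be told apart from the injury when they are compared with day 0.

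The proteasome degrades proteins that carry ubiquitin chains. Its barrel, the 20S core, has outer rings of alpha subunits and inner rings of beta subunits, and the proteolytic sites lie on Psmb5, Psmb6 and Psmb7. The 19S cap binds the chain, removes it and threads the protein into the core: its base holds the ATPases Psmc1 to Psmc6 with Psmd1, Psmd2 and Psmd4, and its lid holds most other Psmd subunits, with the deubiquitinase Psmd14. Psmd5, Psmd9 and Psmd10 are chaperones that help the base to assemble. Interferon and related signals induce Psmb8, Psmb9 and Psmb10, which replace Psmb5, Psmb6 and Psmb7 in newly made particles, the immunoproteasome, and change the peptides offered to MHC class I. When proteasome activity falls short, the transcription factor Nrf1 (gene Nfe2l1) is known to raise most subunit genes together through antioxidant response elements (AREs).

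Promoter windows of 300 bases (250 before to 50 after the RefSeq start, GRCm38.p6) were at hand for 32 of the 38 genes, and short stretches are printed for the catalytic subunits that held letters of an ARE or of an interferon element before their start. Psmb5 and Psmb6 held the ARE letters TGACNNNGC, and Psmb8 held the letters of an interferon gamma activated site (GAS), TTCNNNGAA; capitals mark the match, each stretch runs 5′ to 3′ on the gene's own strand.
Psmb5, chr14:54618024-54618053, minus strand: acgtgaagttgTGACGTCGCggcgttgcca
Psmb6, chr11:70525327-70525356, plus strand: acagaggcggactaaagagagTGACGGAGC
Psmb8, chr17:34198087-34198116, plus strand: gtcctccgctgTTCCCAGAAgatgcccccc
The Psmb8 stretch lies in the first exon of a GENCODE vM21 transcript that starts further upstream. Searched on both strands over the whole window, the ARE letters stood in 5 of 32 members (15.6%; also Psmc6, Psmd9 and Psmd12) against 13.99% of 27025 genes, and the GAS letters in 2 (6.25%; also Psmd2) against 9.55%. The letters of the interferon-stimulated response element (GAAA, any 2 bases, GAAA) stood in 3 members (9.38%; Psmb3, Psmd4 and Psmd9) against 3.99%, and the CCAAT box in 13 (40.6%) against 41.1%. The matches of Psmd9 to the ARE and to the interferon element did not overlap. These are matches of letters and no measure of binding.

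Between 12485579 and 20476979 reads per library fell on genes. Known responses to AKI were present: 4 of 5 tubular injury markers were higher at day 1, where 23.3% of all genes were called higher, and Lcn2, a secreted protein of injured tubules, by 9.55 ± 1.09 (log2 fold change ± SE, adjusted p = 3.6e-05). Markers of the proximal tubule were abundant in every library, with a summed level of 39027 to 42656 CPM at day 0, 17838 to 44628 at day 1 and 8216 to 17157 at day 3.

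At day 0 every core and cap gene stood above the inducible subunits. Per kilobase of the principal transcript, the 14 constitutive core genes had a median level of 104 CPM per kb (from 46.5 for Psma2 to 219 for the alpha subunit Psma4), and the 17 cap genes a median of 78.0 (from 25.5 for the lid subunit Psmd11 to 132 for the ATPase Psmc3). Psmb10 stood at 6.58 ± 1.02, Psmb8 at 3.08 ± 0.28 and Psmb9 at 2.26 ± 0.27 CPM per kb (SD, n = 4), against 141 for Psmb7, 49.0 for Psmb5 and 166 for Psmb6. The assembly chaperones lay between, from 11.8 for Psmd9 to 16.7 for Psmd10. The gene of Psma2 overlaps AW209491 on the same strand over 8943 bases, so its count is uncertain. Psmb8 (chr17:34197721-34201454, plus strand) and Psmb9 (chr17:34181987-34187764, minus strand) lie near each other in the MHC region in GENCODE vM21 (GRCm38), and Psmb10 on chromosome 8 (105935735 to 105938444, minus strand). Opposite-strand neighbours, such as Tap1 beside Psmb9, are kept apart by the stranded counts, in which 98.5% to 98.7% of reads lay on the expected strand.

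**Figure D1:**
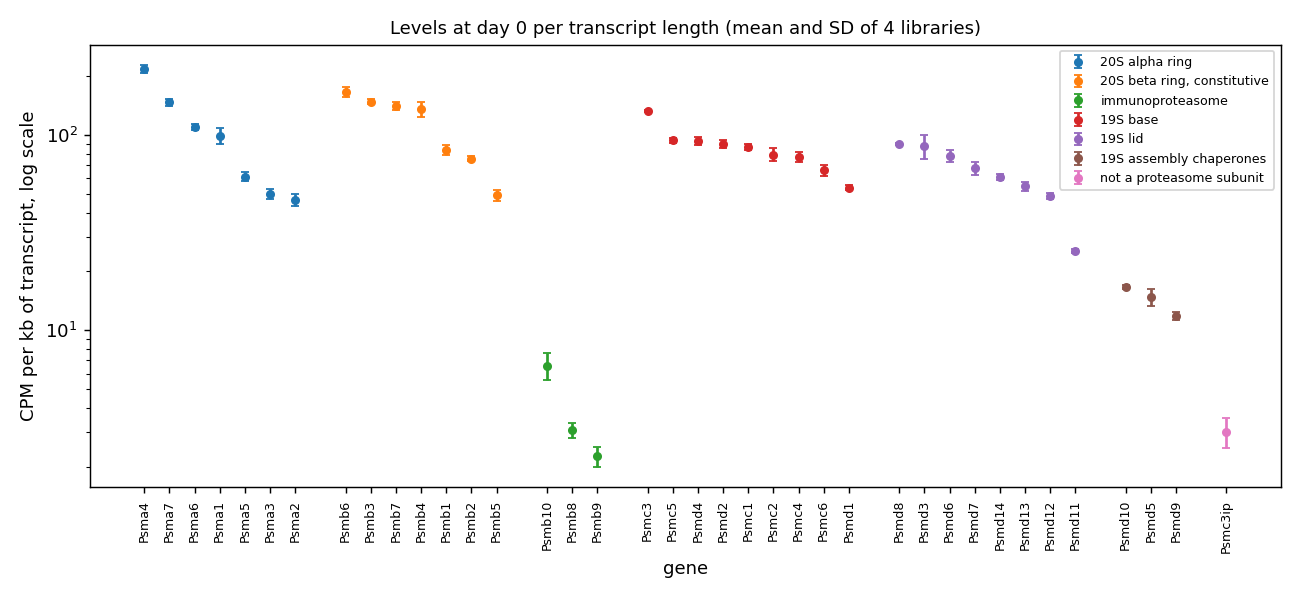
Level of each gene at day 0 in CPM per kb of its principal transcript (log axis), ordered by level within each group; points are means and bars SD of 4 libraries. Core and cap subunits lie between 25.5 and 219 CPM per kb, and Psmb8, Psmb9 and Psmb10 between 2.26 and 6.58.

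At 1 day after IRI, RNA of most proteasome subunits was higher. Of the 38 genes, 29 were higher and 0 lower than at day 0 (edgeR quasi-likelihood test, Benjamini-Hochberg adjusted p under 0.05), where 23.3% of the 14300 genes tested were called higher and 18.7% lower. DESeq2 called 30 higher and 0 lower, and 32 members had an unadjusted p under 0.05. The median log2 fold change of the members was 0.68, against 0.01 over all genes tested. The summed level of the 31 core and cap genes went from 3977, 4156, 4218 and 4248 CPM at day 0 to 5729, 6325, 6431, 6591 and 7547 CPM at day 1. All 5 libraries of day 1 thus lay above all 4 of day 0, and the means were 4150 ± 121 and 6525 ± 658 CPM (SD, n = 4 and 5). For 28 of the 31 genes taken singly, every library of day 1 was above every library of day 0, as was so for 21.5% of all genes. In bulk tissue, a change in how many cells express a gene and a change in RNA per cell cannot be told apart.

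**Figure D2:**
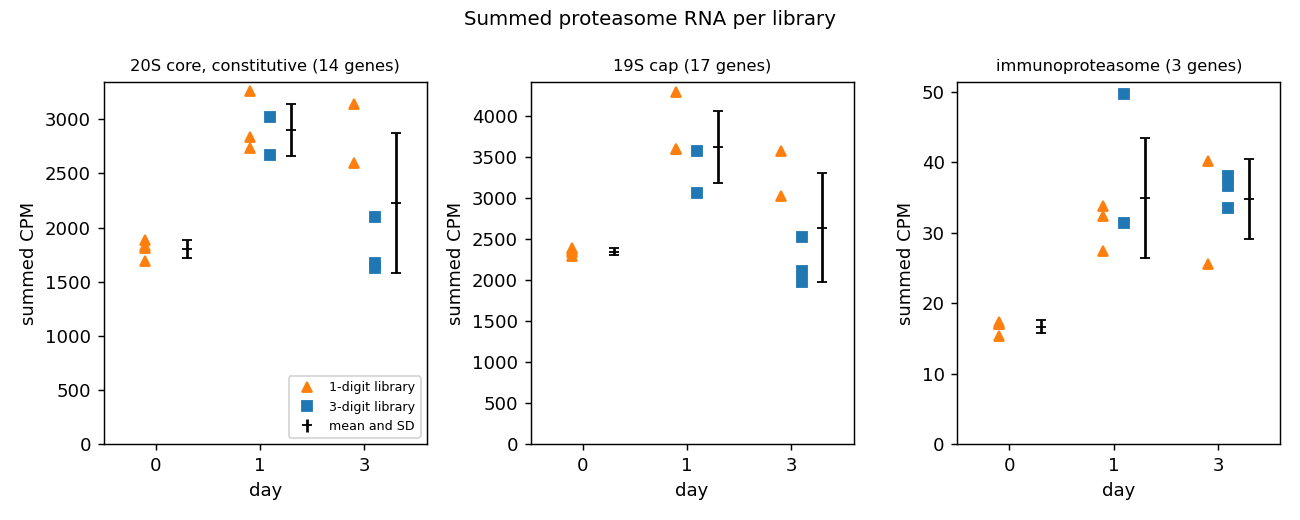
Summed CPM of the constitutive 20S core (14 genes), the 19S cap (17 genes) and the immunoproteasome subunits (3 genes) in each library by day; triangles are 1-digit and squares 3-digit libraries, and bars give mean and SD of all libraries of a day. Core and cap of day 1 lie above day 0 in every library, while at day 3 their 3-digit libraries lie below their 1-digit libraries. For the immunoproteasome subunits the 3-digit libraries of day 3 (33.5 to 38.1 CPM) lie between the 1-digit libraries (25.6 and 40.2 CPM).

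Genes of both rings of the core rose. All 7 constitutive beta subunits were higher, by 0.51 (Psmb7, the trypsin-like site) to 0.91 (Psmb4), and 5 of 7 alpha subunits, by 0.75 (Psma3) to 0.96 (Psma5). The catalytic subunits Psmb5 and Psmb6 changed by 0.83 ± 0.22 (adjusted p = 0.009) and 0.79 ± 0.18 (adjusted p = 0.0043), and the noncatalytic subunits Psmb1, Psmb2 and Psmb3 by 0.52, 0.83 and 0.86. Psma2, Psma6 and Psma7 rose by 0.92, 0.83 and 0.87. The exceptions were Psma1, with 0.42 ± 0.17 (adjusted p = 0.056) although its day 1 libraries lay above those of day 0, and Psma4 with 0.12 ± 0.11 (adjusted p = 0.37). Psma4, the alpha subunit with the most RNA per length at day 0, read 245, 251, 252 and 272 CPM at day 0 and 259, 276, 281, 282 and 288 at day 1. These ranges overlapped.

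Most cap genes rose as well, and the largest changes were in the lid subunits Psmd8 and Psmd11. In the lid 7 of 8 subunits were higher (median 0.54) and in the base 7 of 9 (median 0.63). Over both the median was 0.54, against 0.83 in the core. Psmd8, a lid subunit, read 137, 137, 139 and 142 CPM at day 0 and 243, 275, 320, 339 and 410 CPM at day 1. The groups did not overlap, and the log2 fold change of Psmd8 was 1.20 ± 0.22 (adjusted p = 0.0009). Psmd11, another lid subunit and the one with the least RNA per length among core and cap at day 0, read 69.7, 72.5, 73.3 and 74.5 CPM at day 0. At day 1 Psmd11 read 131, 139, 154, 164 and 199 CPM, a log2 fold change of 1.12 ± 0.21 (adjusted p = 0.0012). The other lid subunits called were Psmd12 (0.74), Psmd7 (0.54), Psmd13 (0.54), the deubiquitinase Psmd14 (0.50) and Psmd6 (0.45). In the base the ubiquitin receptor Psmd4 rose by 0.85, the scaffold subunits Psmd1 and Psmd2 by 0.83 and 0.65, and the ATPases Psmc1, Psmc4, Psmc5 and Psmc2 by 0.76, 0.63, 0.41 and 0.36. The lid subunit Psmd3 (0.47, adjusted p = 0.082) and the ATPases Psmc3 (0.31, adjusted p = 0.091) and Psmc6 (0.26, adjusted p = 0.18) did not pass the test.

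**Figure D3:**
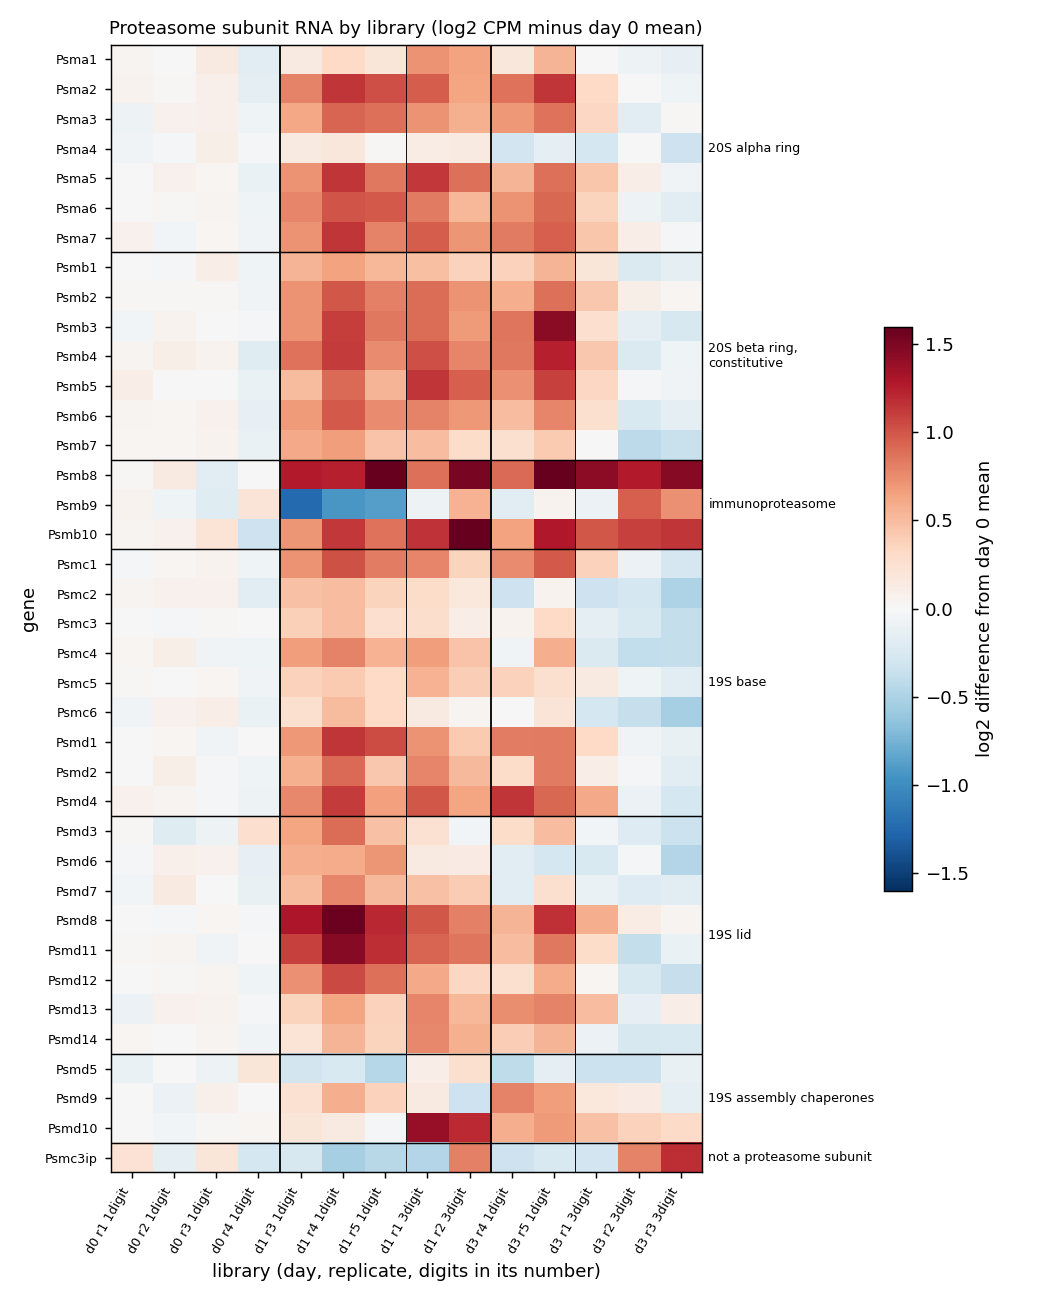
Difference of each gene's log2 CPM from its day 0 mean (colour, limited at 1.6 in either direction) in each library, grouped by role from top to bottom and by day and number of digits from left to right. Most core and cap genes are red across day 1 and in the 1-digit libraries of day 3 (replicates 4 and 5), and paler, near white or blue in the 3-digit libraries of day 3, while Psmb8 and Psmb10 are red in all libraries of days 1 and 3.

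Of the inducible subunits Psmb8 and Psmb10 rose at day 1, and Psmb9 was not called. Psmb8 read 4.42, 5.02, 5.06 and 5.53 CPM at day 0, and 9.32, 12.0, 12.2, 14.5 and 16.5 CPM at day 1, a log2 fold change of 1.36 ± 0.20 (adjusted p = 0.00023) and the largest among the 38. Psmb10 read 6.77, 8.80, 8.94 and 9.98 CPM at day 0, and 14.04, 15.7, 18.8, 19.1 and 30.6 CPM at day 1, a change of 1.19 ± 0.22 (adjusted p = 0.0011). For both, every library of day 1 was above every library of day 0. Psmb9 read 2.65, 2.88, 3.16 and 3.51 CPM at day 0, while at day 1 it read 1.23, 1.54 and 1.61 CPM where the number has 1 digit and 2.86 and 4.50 CPM where it has 3. Its log2 fold change over all 5 libraries was -0.37 ± 0.38 (adjusted p = 0.45). Psmb9 was lower in the 1-digit libraries alone (-1.06 ± 0.30, adjusted p = 0.0083), where 28.9% of genes were called lower, and it differed between the formats at day 1 by 1.33 ± 0.34 (3-digit minus 1-digit, adjusted p = 0.0095).

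The inducible subunits remained a minor share of their sites at the RNA level. Psmb8 reads were 10.2% to 12.6% of Psmb5 reads at day 0 (median 11.5%), 9.61% to 25.6% at day 1 (median 17.0%) and 12.9% to 33.1% at day 3 (median 24.5%). The log2 ratio of Psmb8 to Psmb5 was 0.53 higher at day 1 (adjusted p = 0.114, exact permutation test, two-sided, n = 5 and 4) and 0.95 higher at day 3 (adjusted p = 0.0476, same exact test), when all 5 libraries were above all 4 of day 0. Psmb10 reads had a median of 5.33% of Psmb7 reads at day 0, 7.20% at day 1 and 10.4% at day 3. The ratio rose by 0.64 and by 1.06 on the log2 scale (both adjusted p = 0.0476, exact permutation test). Its groups overlapped at day 1, while at day 3 all 5 libraries were above all 4 of day 0. Psmb9 reads had a median of 2.24% of Psmb6 reads at day 0, 0.738% at day 1 and 1.81% at day 3. That ratio was lower at day 1 by 1.32 on the log2 scale, with overlapping groups (difference -1.32, adjusted p = 0.0476, exact permutation test). It differed by 0.07 at day 3 (adjusted p = 0.889, exact permutation test). With 5 libraries against 4 the smallest two-sided p is 0.0159, the p-values were adjusted over 6 ratio tests, and the adjusted p of the called ratios went up to 0.107 when 1 library was left out. Shares are given on reads and not per length. The ratios differed by number format, which was not tested. The change of the Psmb8 to Psmb5 ratio was 0.77 in the 1-digit and 0.16 in the 3-digit libraries at day 1, and 0.39 and 1.32 at day 3. For Psmb10 to Psmb7 it was 0.33 and 1.10 at day 1, and 0.63 and 1.34 at day 3. For Psmb9 to Psmb6 it was -1.86 and -0.51 at day 1, and at day 3 the values had opposite signs, -0.69 and 0.58.

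**Figure D4:**
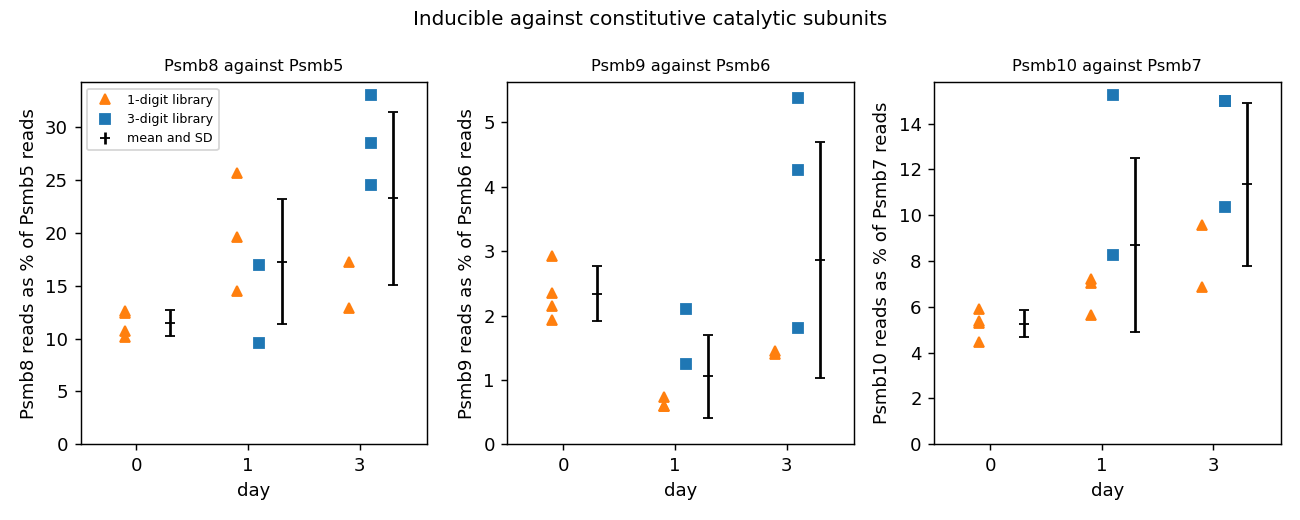
Reads of each inducible catalytic subunit as a percent of the reads of the constitutive subunit it replaces, in each library by day; triangles are 1-digit and squares 3-digit libraries, and bars give mean and SD of all libraries of a day. The medians for Psmb8 against Psmb5 are 11.5%, 17.0% and 24.5% at days 0, 1 and 3, and Psmb9 against Psmb6 is lowest in the 1-digit libraries of day 1.

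At 3 days after IRI Psmb8 and Psmb10 were higher than at day 0, Psmb9 was not called (0.37 ± 0.38, adjusted p = 0.46), and 2 of the 31 core and cap genes were called. Of the 38 genes, 4 were higher than at day 0 and 0 lower, where 19.5% of all genes were called higher and 13.8% lower; 12 had an unadjusted p under 0.05, and DESeq2 called 5 higher and 1 lower. Psmb8 read 9.41, 12.2, 13.6, 13.9 and 16.2 CPM and was higher by 1.38 ± 0.20 (adjusted p = 0.0003). Psmb10 read 13.4, 17.1, 18.4, 19.1 and 20.9 CPM and was higher by 1.04 ± 0.22 (adjusted p = 0.0033). The other calls were Psma7 (0.52 ± 0.19, adjusted p = 0.049), whose groups overlapped, and Psmb2 (0.44 ± 0.16, adjusted p = 0.043). Of the 17 cap genes, 0 were called (4 with an unadjusted p under 0.05; DESeq2 called 1). The median change was 0.42 in the core and 0.10 in the cap, against 0.05 over all genes. The count rested on the libraries used: it was 14 without replicate 2 of day 3, 8 without replicate 3, and 2 without any 1 library of day 0 or without replicate 1 or 4 of day 3 or replicate 1 or 5 of day 1. Scaled to library totals instead of TMM factors, the median of all genes moved to 0.19 and 14 members were called.

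From day 1 to day 3, 10 of the 38 genes fell and 0 rose, where 7.39% of all genes were called lower and 8.52% higher. Psmd11 fell by 0.83 on the log2 scale, Psmd6 by 0.69, the ATPases Psmc4 and Psmc2 by 0.68 and 0.63, Psmd8 by 0.65, Psmd12 by 0.64 and Psmd7 by 0.61, all subunits of the cap. In the core Psma5 fell by 0.53, Psmb7 by 0.49 and Psma4 by 0.33. All 31 core and cap genes had a value below zero, whereas Psmb8 changed by 0.02 ± 0.18 and Psmb10 by -0.15 ± 0.20 (adjusted p = 0.96 and 0.66). Without replicate 5 of day 3 the count of falls was 26; it was 5 or 6 without replicate 1, 2 or 3 of day 3, replicate 3, 4 or 5 of day 1, or replicate 1, 2 or 3 of day 0. In the 1-digit libraries alone 5 fell and 2 rose (15.1% and 15.8% of all genes), and in the 3-digit libraries 26 fell and 0 rose (6.15% and 7.15% of all genes; 32 had an unadjusted p under 0.05).

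Within day 3, core and cap genes differed by the format of the library number. The summed level of the 31 core and cap genes was 5613 and 6708 CPM in the 1-digit libraries (replicates 4 and 5) and 4621, 3774 and 3598 CPM in the 3-digit libraries (replicates 1, 2 and 3). The 3-digit libraries were near the 3977 to 4248 CPM of day 0, and the 1-digit libraries near the 5729 to 7547 CPM of day 1. Of the 38 genes, 27 were lower in the 3-digit libraries and 0 higher, where 7.85% of the 14804 genes tested were called lower and 9.98% higher; DESeq2 called 28 lower. The calls covered 13 of 14 core genes (median difference -0.69) and 13 of 17 cap genes (median -0.61). For 26 of the 31, both 1-digit libraries were above all 3-digit libraries, as was so for 19.8% of all genes. Psmb3 read 204 and 308 CPM in the 1-digit and 137, 102 and 94.9 CPM in the 3-digit libraries, a difference of -1.20 ± 0.19 (adjusted p = 0.0038). Psmb4 read 288 and 380 CPM against 216, 136 and 153 CPM, a difference of -0.99 ± 0.20 (adjusted p = 0.009). Psma2 differed by -0.92, Psmd4 by -0.90, Psmc1 by -0.84 and Psmb5 by -0.83. The core gene that was not called was Psma4 (0.03, adjusted p = 0.89), and in the cap these were Psmc2 (-0.24), Psmc5 (-0.34), Psmd6 (-0.00) and Psmd7 (-0.22). The immunoproteasome subunits gave 0 calls of 3, with none at an unadjusted p under 0.05 and none by DESeq2: Psmb8 differed by 0.05 ± 0.25, Psmb10 by 0.09 ± 0.24 and Psmb9 by 0.67 ± 0.34.

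This difference rested on few libraries. Without replicate 5 of day 3, which had the highest level of 27 of the 31 core and cap genes, 0 of 38 were called; 22 still had an unadjusted p under 0.05, all lower, with a median of -0.41, and 0.646% of all genes were called in that fit. Without replicate 3 the count was 9, without replicate 2 it was 11, without replicate 4 it was 24, and without replicate 1 it was 30, of which 28 were lower and 2 higher. Against day 0, with which both formats share the same 4 controls, 26 of 38 genes were higher and 0 lower at day 3 where the number has 1 digit (28.0% and 24.6% of all genes), with medians of 0.76 in the core and 0.43 in the cap. The 3-digit libraries had 3 higher (18.9% of all genes), Psmb8 (1.40), Psmb10 (1.07) and the chaperone Psmd10 (0.38), and 2 lower (12.9% of all genes), the ATPases Psmc6 (-0.39) and Psmc2 (-0.37). Other genes moved with the format at day 3, where 9.98% of all genes were called higher and 7.85% lower in the 3-digit libraries. Of 8 proximal tubule markers 3 were higher there, Slc34a1, Lrp2 and Cubn, and 0 lower. Their summed levels overlapped, at 8978 and 10090 CPM in the 1-digit and 8216 to 17157 CPM (median 8454) in the 3-digit libraries. The summed level of 8 macrophage markers was 130 and 139 CPM against 268 to 459 CPM. Of these 8, 4 were higher in the 3-digit libraries and 1 was lower, Cd68 (-1.23, adjusted p = 0.021). Of 4 endothelial markers 3 were lower in the 3-digit libraries, as core and cap genes were, with summed levels of 286 and 494 CPM in the 1-digit and 112 to 196 CPM in the 3-digit libraries. Of 5 tubular injury markers 1 was lower there, Krt20 (-2.42), and their summed level was 3426 and 4560 CPM against 970 to 2426 CPM. The summed neutrophil markers read 67.7 and 408 CPM against 19.3 to 130 CPM, which overlap, and their adjusted p ran from 0.10 for S100a9 to 0.76 for Cxcr2. No marker of these 5 lists was at 0 in all libraries of a format. Their part in the result was not tested.

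**Figure D5:**
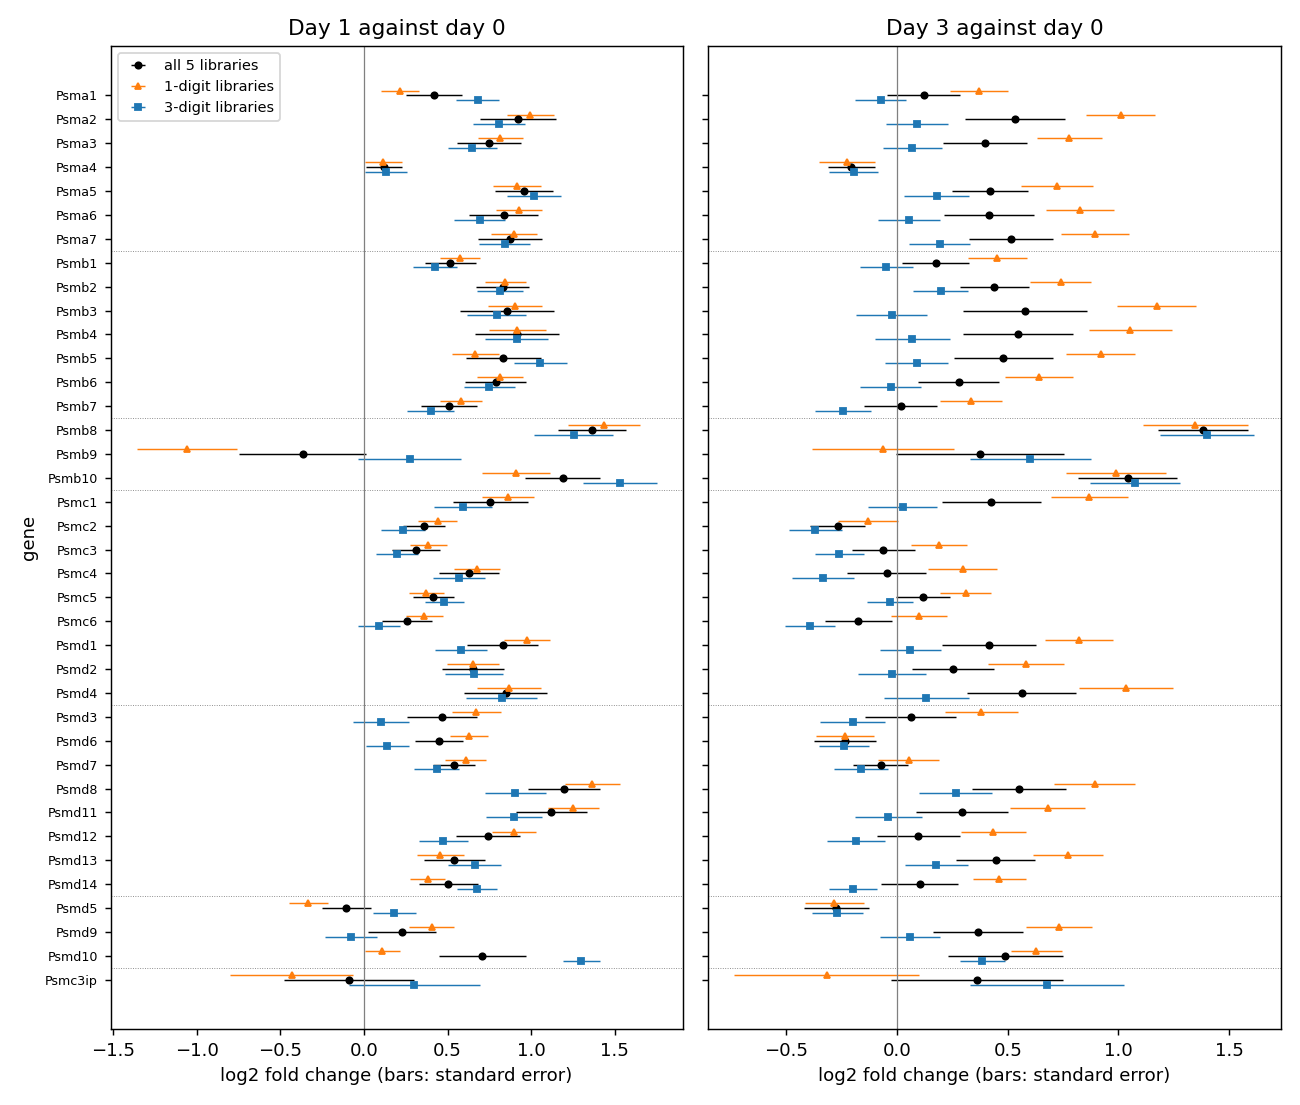
Log2 fold change against day 0 of each gene at day 1 (left) and day 3 (right) for all 5 libraries of the day (black), its 1-digit libraries (orange triangles) and its 3-digit libraries (blue squares), with standard errors; dotted lines part the groups. At day 1 the formats lie together for most core and cap genes, and at day 3 the 1-digit libraries lie to the right, with a core median of 0.76.

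At day 1 both formats showed the rise. Against day 0, the 1-digit libraries had 32 of the 38 genes higher and 2 lower, Psmb9 and Psmd5 (28.5% and 28.9% of all genes). The 3-digit libraries had 28 higher and 0 lower (22.3% and 18.4% of all genes). The formats had core medians of 0.83 and 0.77 and cap medians of 0.65 and 0.57. Between the formats of day 1, 4 members were higher and 3 lower in the 3-digit libraries, where 18.1% and 16.0% of all genes were: Psma1 (0.47), Psmb9 (1.33) and the chaperones Psmd5 (0.51) and Psmd10 (1.19) were higher in the 3-digit libraries, and Psmd3 (-0.57), Psmd6 (-0.49) and the chaperone Psmd9 (-0.48) were lower. With replicate 2 of day 1 left out, 1 member was called. Of 8 proximal tubule markers 4 were lower in the 3-digit libraries of day 1 (median -1.34), and their sums were 34513 to 44628 CPM in the 1-digit and 17838 and 28518 CPM in the 3-digit libraries. Of 5 tubular injury markers 1 was higher there, Havcr1 (5.01), and the sums were 899 to 2857 CPM against 5235 and 5579 CPM. Their part in the differences between formats was not tested. The format difference itself differed between the days for 8 members, all with a positive value (day 1 minus day 3), where 8.17% of all genes were called higher and 8.86% lower. This count was 4 without replicate 1 of day 1 or replicate 5 of day 3, 5 without replicate 3 or 5 of day 1 or replicate 2 of day 3, and 18 without replicate 1 of day 3. Psmb5 had the largest among the core and cap, 1.22 ± 0.24 (adjusted p = 0.0048): the formats differed by 0.39 at day 1 and by -0.83 at day 3. Psmb3, Psmb4, Psmd14, Psma1, Psmd13 and Psma2 followed with 1.09, 0.98, 0.96, 0.91, 0.80 and 0.73. For Psmb8 and Psmb10 this value was -0.24 ± 0.36 and 0.53 ± 0.34, neither called.

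Of the 3 assembly chaperones, which help the 19S base to form, 1 was called at day 1, where 23.3% of all genes were called higher, and 0 at day 3 (edgeR; 0 at an unadjusted p under 0.05 and 0 by DESeq2). Psmd10, also called gankyrin, read 23.1, 23.8, 24.1 and 24.4 CPM at day 0, and at day 1 read 23.3, 26.4 and 27.3 CPM in the 1-digit and 54.4 and 62.7 CPM in the 3-digit libraries. Its rise at day 1 (0.71 ± 0.26, adjusted p = 0.041) came with overlapping groups, and was 0.11 in the 1-digit and 1.30 in the 3-digit libraries. At day 3 Psmd10 read 29.6 to 38.2 CPM, all above day 0 (0.49, adjusted p = 0.16). Psmd5 changed by -0.11 and Psmd9 by 0.23 at day 1, and by -0.27 and 0.37 at day 3, none called. In the 1-digit libraries of day 3 alone Psmd10 (0.63) and Psmd9 (0.73) were higher, where 28.0% of all genes were, and in the 3-digit libraries Psmd10 (0.38, adjusted p = 0.012), where 18.9% were. Psmc3ip, the match by name, changed by -0.09 and 0.36 with SE of 0.39, neither called.

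Genes that work with the proteasome are given by list, beside 23.3% of all genes called higher and 18.7% lower at day 1, and 19.5% and 13.8% at day 3; a single call in a list of 5 or 7 is near or below these shares. Among 5 activators and inhibitors of the core, Psme2 (0.81 ± 0.15, adjusted p = 0.00083) and Psme1 (0.43), subunits of the interferon-inducible activator PA28, and the inhibitor Psmf1 (0.73) were higher at day 1, and Psme4 (-0.42), subunit of the nuclear activator PA200, was lower; at day 3 Psme1 (0.61) and Psme2 (0.59) were higher. Among 5 factors that assemble the core, Pomp rose by 0.68 and Psmg3 by 0.43 at day 1, and Psmg4 by 0.64 at day 3. Among 7 further subunits or bound enzymes of the cap, Txnl1 (0.89), Adrm1 (0.80), the deubiquitinase Usp14 (0.76) and Shfm1 (0.53), the older symbol of the lid subunit Sem1, were higher at day 1, and Shfm1 alone at day 3 (0.46). Of 7 genes of the Nrf1 route, Nfe2l1 itself changed by -0.10 (adjusted p = 0.60) at day 1, Vcp, the segregase that extracts it from the membrane, rose by 0.56 and Ubxn1 by 0.54, and Fam8a1 and the deglycosylase Ngly1 fell by 1.10 and 0.38; at day 3 Ubxn1 was higher (0.47, adjusted p = 0.047), and Fam8a1 (-0.34) and Ngly1 (-0.20) were not called. Among genes of ubiquitin and its activation, Rps27a (1.16) and the E1 enzyme Uba1 (0.26) were higher at day 1; at day 3 Rps27a was higher (1.05) and Ubb lower (-0.65).

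Genes of the MHC class I route that uses proteasome peptides and of the interferon response were counted beside the shares of all genes called. These were 23.3% higher and 18.7% lower at day 1, and 19.5% higher and 13.8% lower at day 3. Of 10 genes of MHC class I and its peptide loading, 6 were higher at day 1, led by the peptide transporter Tap1 (1.48 ± 0.26, adjusted p = 0.00067), H2-D1 (1.37) and H2-K1 (1.18), and the chaperones Calr (-0.77) and Canx (-0.56) were lower; at day 3, 5 were higher and 3 lower. The MHC class I list summed to 3009 to 3187 CPM at day 0, 1879 to 3053 at day 1 and 1825 to 2537 at day 3. Between the formats of day 1, 4 of its 10 genes were lower and 0 higher in the 3-digit libraries. Of 12 interferon response genes, 5 were higher at day 1 (Isg15 1.83, Irf8 1.63, Gbp2 1.34, Irgm1 1.05 and Irf1 0.99). At day 3, 3 were higher (Gbp2, Irf8 and Irf1), a share near that of all genes. The day 1 count differed by format: 9 were higher and 1 lower in the 1-digit libraries (median 1.20; 28.5% and 28.9% of all genes), and 3 were higher in the 3-digit libraries (median 0.13; 22.3% of all genes). Between the formats of day 1, 6 of the 12 were lower and 1 higher in the 3-digit libraries (16.0% and 18.1% of all genes). The list's summed level was 132 to 152 CPM at day 0, 217 to 315 in the 1-digit and 157 and 201 in the 3-digit libraries of day 1, and 152 to 236 at day 3. Immunoproteasome subunits are abundant in leukocytes: all 5 neutrophil markers measured were higher at both days, with summed levels of 1.33 to 2.07 CPM at day 0, 47.4 to 201 at day 1 and 19.3 to 408 at day 3. The 8 macrophage markers went in both directions, with 2 higher and 1 lower at day 1 (median 0.42) and 3 higher and 1 lower at day 3. Cd68 rose by 3.57 and Itgam by 3.02 at day 1 while Csf1r, the most abundant of the list at day 0, fell by 1.65 on the log2 scale. Their sum was 131 to 220 CPM at day 0, 88.2 to 153 at day 1 and 130 to 459 at day 3. The 9 lymphocyte markers summed to at most 3.69 CPM in any library. The part of infiltrating cells in the values of Psmb8 and Psmb10 was not tested.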

How the data were processed

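Total RNA was extracted with TRIzol and sequenced from TruSeq libraries. The authors trimmed with Trimmomatic and aligned to mm10 with STAR (versions not given in the sources used here), and deposited raw read counts per gene in columns by strand. The fourth column, which held 98.5% to 98.7% of stranded reads, was used; 29.0% to 38.3% of reads lay on no gene and were left out. Members and gene lists were chosen with earlier results of these data known. Genes passing filterByExpr were tested with edgeR 4.0.16 (TMM, quasi-likelihood, Benjamini-Hochberg over all genes; R 4.3.3) on all 3 days, or with number format by day; adjusted p under 0.05 was called. CPM use TMM-scaled totals. Ratios (pseudocount 0.5 reads) had exact permutation tests (scipy 1.17.1). Every member was named; of each other list the rule named the called gene with the largest rise and fall per day and the 2 most abundant, and further genes were named after their values were seen. In simulated counts with log2 changes of 2 and 1 at day 1, the fit recovered 94 and 47 of 100 genes, with 6 false calls among 14160 genes. Only genes above a count threshold were changed, and no difference by number format was simulated. The members' median change at day 1 (0.68) was smaller than both sizes, so the recovery at that size is not given. Gene models are GENCODE vM21; promoters are RefSeq, GRCm38.p6. Alternatives were the unstranded column, DESeq2 1.42.0, other scaling, filters and thresholds, a replicate block, number format and leaving out each library. The ubiquitin list is given in part, and 1 gene of it is not reported here.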

Additional observations from a re-analysis of the deposited data

Results flagged for a closer look

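Over 123 sets of values (each member and each subunit ratio within each day), 6 had 1 library standing apart from the rest, where chance gives 1 in 20 (6.15). Replicate 4 of day 0 was lowest for Psmb2 (5.97 log2 CPM), Psmb6 (6.92), Psmb7 (7.25) and Psmc2 (6.97), below 3 libraries that lay close together. Replicate 2 of day 1 was highest for Psmc3ip (2.79 log2 CPM), and replicate 5 of day 3 for Psmd7 (6.99). The difference between number formats itself differed between days 1 and 3 (interaction term, edgeR) for Psmd10 (1.43), Psmb5 (1.22), Psmb3 (1.09), Psmb4 (0.98), Psmd14 (0.96), Psma1 (0.91), Psmd13 (0.80) and Psma2 (0.73).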

How the results depend on the processing

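The day 1 count of 29 stayed between 23 (replicate block) and 34 (only the 1-digit libraries, 32 higher and 2 lower) without leaving out a library. It was 22 to 32 when each library was left out. At day 3 against day 0 (main count 4) the count was 2 with RLE size factors, 2 with no filter and 2 with the replicate block. It was 14 with library totals without TMM, 21 with number format as a term (20 higher and 1 lower) and 27 with only the 1-digit libraries. Over the libraries left out it was 2 to 14. At day 3 against day 1 (10) it was 3 with only the 2 days compared, 5 without TMM, 26 with only the 3-digit libraries, and 5 to 26 over the libraries left out. Between formats the counts were 1 to 10 at day 1 (4 where a change of 0.5 or more on the log2 scale was also required) and 0 to 30 at day 3; without TMM the 7 calls of day 1 became 8, all higher. For the difference of the differences the count was 19 without TMM and 4 to 18 over the libraries left out. Library totals without TMM moved the median of all genes to 0.24 for the formats of day 1 and 0.17 for day 3 against day 1. Psmd10 reversed at day 3 against day 1 in the 1-digit libraries (0.51). The Psmb8 to Psmb5 ratio moved to 0.39 at day 3 in the 1-digit libraries and the Psmb9 to Psmb6 ratio to -0.51 at day 1 in the 3-digit libraries. Leaving out each library gave ratio differences of 0.36 to 0.72 (day 1) and 0.80 to 1.14 (day 3) for Psmb8, -1.61 to -1.16 and -0.21 to 0.27 for Psmb9, and 0.42 to 0.77 and 0.94 to 1.22 for Psmb10, with adjusted p over 0.05 in part, where fewer libraries raise the smallest p. The replicate numbers did not pair the samples: correlations of same-numbered libraries ran from -0.17 to 0.26. For the other changes the cause was not tested. Low counts limit Psmb9 and Psmc3ip.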
